A study of Rattus norvegicus with 18 samples.

Results

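The cathepsins and cystatins of the rat ovarian follicle were followed from proestrus to estrus through 10 probe sets of 9 genes, out of 31042 probe sets on the array. The members were the probe sets whose single gene symbol in the platform annotation was Ctsd, Ctsb, Ctsl, Ctsh, Ctsz, Ctsk, Ctss, Cst3 or Cstb, with Ctsl represented by 2 probe sets and each other gene by 1. All 10 were among the 18155 probe sets tested, and all 180 of their values stood above the background of their array, the lowest at 3.53 times the brightest control probe set without a spiked target.

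Follicles of Crl:CD(SD) rats were isolated by laser microdissection and measured on 18 arrays in 6 groups of 3 samples, with 15 follicles retrieved in each phase per the labels. RU UF were unruptured follicles at 10:00 of estrus from rats given 100 mg/kg RU486 (RU), which blocks progesterone and glucocorticoid receptors, in 1 oral dose at 10:00 of proestrus. IM UF were unruptured follicles at 10:00 of estrus from rats given 4 mg/kg indomethacin (IM), which blocks prostaglandin synthesis by cyclooxygenases, in 1 oral dose at 16:00 of proestrus. Control PoF were post-ovulatory follicles at 10:00 of estrus from untreated rats. RU PeF, IM PeF and control PeF were peri-ovulatory follicles taken at 22:00 of proestrus after the same treatments. The control rats were untreated, with no vehicle mentioned in the labels, and the sources used here give no age. At estrus only control follicles had ruptured, so drug and rupture cannot be told apart there, and the drugs differed in dose and in the hour of dosing as well as in target. The labels give 3 animals per treatment and time but tie no sample to an animal, so the p-values measure the spread between these samples, and 3 arrays per group limit the precision of every value.

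Cathepsins are proteases made as inactive precursors and activated mainly in the acid interior of lysosomes, from which some are also secreted to cut proteins of the extracellular matrix. Most of those measured are cysteine proteases of the papain family, which cystatins inhibit by blocking the active site, while cathepsin D is an aspartic protease that cystatins do not inhibit. In mouse follicles cathepsin L is induced before ovulation and depends on the progesterone receptor.

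The arrays differed in brightness, with median deposited signals of 4.4 to 27.4, and the signals were therefore quantile normalized before any test. The dimmest array was control PeF 3. Between 45.7% and 75.3% of probe sets per array exceeded the background of their array. Gapdh signals at the 3' end exceeded those at the 5' end by 2.07 to 4.09 on the log2 scale, a gap that widens with RNA degradation. It was 2.30, 2.07 and 2.29 in control PoF, against 4.09, 2.95 and 3.93 in control PeF, without overlap. In RU UF it was 3.26, 2.86 and 3.09, above every control PoF array. In IM UF it was 2.18, 3.83 and 2.62. The part of RNA quality in the differences between these groups was not tested. Of 14 measured granulosa cell genes 13 stood above background on all 3 control PeF arrays, with Amh below it on at least 1, and all 9 measured theca genes stood above it. Every level below is a normalised signal, and every difference is on the scale of log2(normalised signal + 2.79) with its standard error over 3 samples per group, tested with limma over all 18 samples and adjusted by the Benjamini-Hochberg method over the 18155 probe sets. A difference was called at an adjusted p under 0.05. In samples of whole follicles, fewer cells of a type and less RNA per cell cannot be told apart.

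The promoters of 3 members are shown because these genes moved differently: Ctsd rose from proestrus to estrus in every treatment, Ctsl fell in RU and control follicles, and Cstb was the only one of the 9 called between the drugs. The sequences are RefSeq's on GRCr8, from 250 bases before to 50 after the annotated start, 5′ to 3′ along the gene. Capitals mark matches to the E-box CACGTG, the core of the element shared by many lysosomal genes, to the GC box GGGCGG or to the steroid receptor core motif TGTTCT, in either orientation.
Ctsd promoter, chr1:206968772-206969071, minus strand: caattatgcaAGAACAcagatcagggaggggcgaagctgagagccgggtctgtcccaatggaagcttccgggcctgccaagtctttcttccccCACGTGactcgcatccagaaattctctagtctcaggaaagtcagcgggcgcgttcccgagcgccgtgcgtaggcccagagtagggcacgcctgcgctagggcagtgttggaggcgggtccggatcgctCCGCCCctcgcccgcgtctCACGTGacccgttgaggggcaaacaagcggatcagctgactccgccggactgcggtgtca
Ctsl promoter, chr17:769854-770153, plus strand: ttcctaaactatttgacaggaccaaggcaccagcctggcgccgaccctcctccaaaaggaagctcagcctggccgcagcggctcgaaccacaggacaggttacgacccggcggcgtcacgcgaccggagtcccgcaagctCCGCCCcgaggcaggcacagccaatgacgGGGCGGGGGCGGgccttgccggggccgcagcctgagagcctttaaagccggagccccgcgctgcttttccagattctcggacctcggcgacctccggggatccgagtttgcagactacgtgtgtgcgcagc
Cstb promoter, chr20:10247150-10247449, minus strand: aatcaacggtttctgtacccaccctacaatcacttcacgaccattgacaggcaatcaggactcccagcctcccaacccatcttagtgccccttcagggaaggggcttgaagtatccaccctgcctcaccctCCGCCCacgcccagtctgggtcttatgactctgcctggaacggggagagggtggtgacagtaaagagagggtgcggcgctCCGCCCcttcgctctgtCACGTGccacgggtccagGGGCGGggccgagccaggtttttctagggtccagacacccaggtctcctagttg

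The Ctsd window held 2 E-boxes, starting at positions -157 and -10 from the start site, and the Cstb window held 1, at position -22. None was in the Ctsl window, which held 3 GC boxes at positions -110, -81 and -75. No matches overlapped each other. Of the 8 members with a promoter in the table, 2 had an E-box, where 6.42% of 33469 rat promoters of the same length had one. The GC box was in 6 of the 8, against 33.1% of all promoters, and the steroid receptor core motif in 2, Ctsd and Cst3, against 20.7%. The cyclic AMP element TGACGTCA (1.83% of all promoters) and the AP-1 motif TGANTCA (7.33%) were in none of the 8. These matches describe letters in a window and say nothing of binding.

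**Figure D1:**
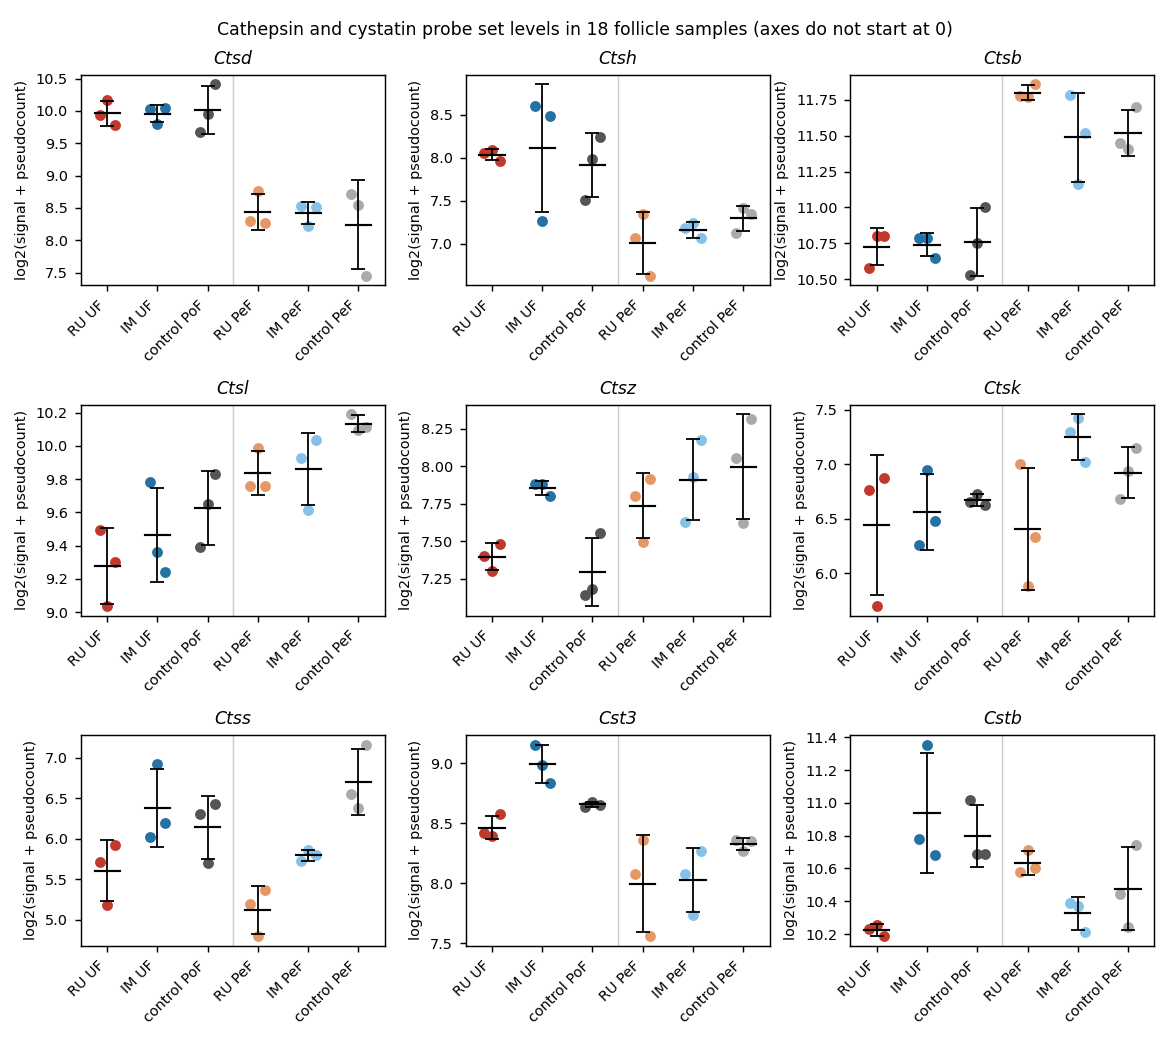
Level of each gene in each of the 18 samples, as log2(normalised signal + 2.79) on axes that do not start at 0; points are samples, bars the mean ± SD of 3, and the vertical line separates follicles of estrus on the left from those of proestrus on the right. Ctsd lay higher and Ctsb lower in all 9 samples of estrus than in any of proestrus, and Cstb lay at 1163 to 1222 in RU UF.

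The comparison of estrus with proestrus follicles asks which proteases change between these times, with rupture in control follicles only. Cathepsin D (Ctsd, gene at chr1:206956945-206968821 on GRCr8), the main aspartic protease of lysosomes, rose about 3-fold in RU, IM and control follicles, and cathepsin B (Ctsb) fell in all of them. Cathepsins H, L and Z and both cystatins changed in some of the time courses. In RU follicles 6 of the 9 genes were called, where 38.8% of all probe sets were. In IM follicles 5 were called, where 33.3% of probe sets were, and in control follicles 4, where 39.6% were. By direction, 3 rose and 3 fell under RU against a background of 19% and 19.9%, 4 rose and 1 fell under IM against 16.3% and 17%, and 1 gene rose and 3 fell in the control time course against 21% and 18.5%. With so many probe sets called, these counts are no result about the family. The median difference of the 9 genes was 0.036, 0.59 and -0.25 in the RU, IM and control time courses, where that of all probe sets was -0.023, -0.034 and 0.045. In the control time course the direction of the calls depended on the scaling. With median scaling 4 genes rose (Ctsd, Ctsh, Cst3 and Cstb) and 0 fell. On the deposited signals 3 rose (Ctsd, Ctsh and Cstb) and 0 fell. Under these scalings 5835 and 5595 of all probe sets were called in either direction. The median of all probe sets was 0.26 and 1.28, an upward shift that favours rises over falls. The signals as deposited keep the unequal brightness of the arrays. On them limma called 0 of the 9 genes in the RU and IM time courses, with 1 and 1 at an unadjusted p under 0.05. Ctsd still stood at 1.35 and 1.53. Of all probe sets 1038 and 609 were called there, against 7052 and 6052 after quantile normalization.

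Ctsd had normalised signals of 973, 1150.0 and 878 in RU UF, against 310.4, 431 and 306 in RU PeF. It had 1037, 889.7 and 1052 in IM UF, against 365, 297 and 365 in IM PeF. It had 815, 989 and 1361 in control PoF, against 419, 370.0 and 172 in control PeF. Each of the 9 samples of estrus lay above each of the 9 of proestrus, and the lowest value belonged to control PeF 3, the dimmest array. The rise was 2.87-fold in RU follicles (1.52 ± 0.26 on the log2 scale, limma adjusted p = 0.000146), 2.89-fold in IM follicles (1.53 ± 0.26, adjusted p = 0.000178) and 3.43-fold in control follicles (1.78 ± 0.26, adjusted p = 3.66e-05). At estrus no difference of Ctsd from control passed under either drug. RU UF differed from control PoF by -0.054 ± 0.26 (95% interval -0.59 to 0.49, adjusted p = 0.948) and IM UF by -0.059 ± 0.26 (-0.60 to 0.48, adjusted p = 1).

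Ctsb (gene at chr15:41565607-41586479), a lysosomal cysteine protease that can cut both within a protein and from its end, moved the other way. It had 1528, 1779 and 1786 in RU UF, against 3494, 3482 and 3708 in RU PeF, and 1765, 1765 and 1604 in IM UF, against 3516, 2295 and 2932 in IM PeF. In control PoF it had 1474, 1727 and 2048, against 2786, 2716 and 3322 in control PeF. No sample of estrus reached any of proestrus. The fall was 2.10-fold in RU follicles (-1.07 ± 0.14, limma adjusted p = 1.28e-05), 1.68-fold in IM follicles (-0.75 ± 0.14, adjusted p = 0.000543) and 1.69-fold in control follicles (-0.76 ± 0.14, adjusted p = 0.000428). In the control time course the fall did not pass with median scaling (-0.50, adjusted p = 0.0848). With the signals as deposited Ctsb stood at 0.64 there, below the median of all probe sets at 1.28.

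A factor that scales all signals of an array alike cancels in a ratio of its own signals. The deposited signals of Ctsd and Ctsb were therefore also set against each other within each array. Relative to its mean over the 18 arrays, the log2 ratio of Ctsd to Ctsb was 1.25 ± 0.23 (SD, n = 3) in RU UF and -1.45 ± 0.22 in RU PeF. It was 1.24 ± 0.21 in IM UF and -0.997 ± 0.26 in IM PeF. It was 1.30 ± 0.12 in control PoF and -1.34 ± 1.12 in control PeF. The dimmest array, control PeF 3, stood at -2.64, against -0.61 and -0.78 on the other control PeF arrays. An array effect that differs between probe sets does not cancel in such a ratio, and its part here was not tested. The 9 arrays of estrus (0.98 to 1.43) did not overlap the 9 of proestrus (-2.64 to -0.61). The same held for the ratios of Ctsh, Cst3 and Cstb to Ctsb, while those of Ctsl and Ctsz to Ctsb overlapped between the times. Ctsb was lower in all 9 samples of estrus, so the ratio of an unchanged gene to it would also be higher there. The share of all probe sets whose ratio to Ctsb separates the times was not counted, so these separations are no result about the members. A ratio of this kind shows unequal change of a pair of genes, not which of the pair moved.

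**Figure D2:**
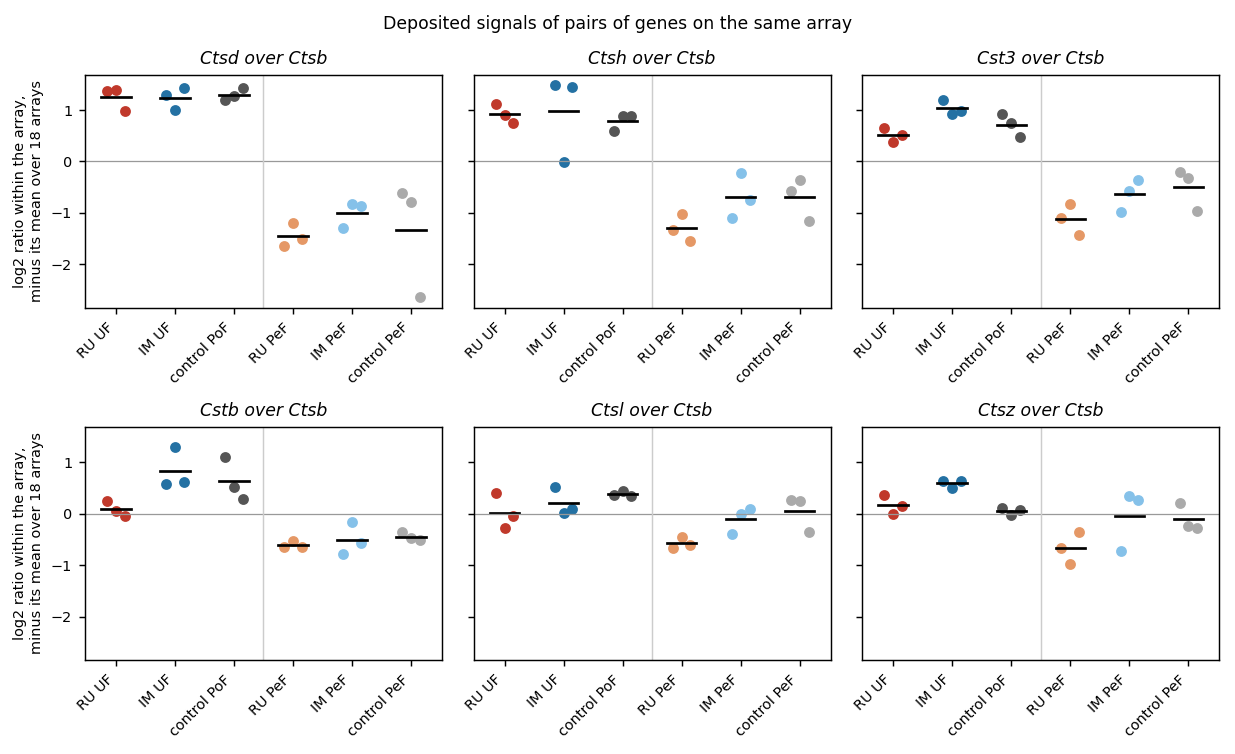
Log2 ratio of deposited signals of a gene to Ctsb on the same array, minus its mean over the 18 arrays; points are arrays and lines the mean of 3, with estrus left and proestrus right of the vertical line. The ratios of Ctsd, Ctsh, Cst3 and Cstb were higher on all 9 arrays of estrus than on any of proestrus, and those of Ctsl and Ctsz overlapped.

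Cathepsin L (Ctsl, gene at chr17:770104-776266), a broad endopeptidase of lysosomes, was lower at estrus. Its brighter probe set had 717, 522 and 627 in RU UF, against 865, 1011 and 864 in RU PeF. It had 876, 656 and 602 in IM UF, against 971, 782 and 1047 in IM PeF. It had 668, 801 and 909 in control PoF, against 1165, 1089.7 and 1104 in control PeF. The RU and control groups did not overlap between the times, and IM UF 1 lay within the range of IM PeF. Ctsl fell 1.47-fold in RU follicles (-0.56 ± 0.16, limma adjusted p = 0.00946) and 1.42-fold in control follicles (-0.51 ± 0.16, adjusted p = 0.017), while the difference in IM follicles, -0.40 ± 0.16, had an adjusted p of 0.0625. The other probe set of Ctsl passed in all 3, at -1.04 ± 0.20 (adjusted p = 0.000496), -0.72 ± 0.20 (adjusted p = 0.0102) and -0.90 ± 0.20 (adjusted p = 0.00176) in the RU, IM and control follicles, so the probe sets disagree on the IM call. Leaving out control PoF 1 ended the control call of the brighter probe set (-0.39, adjusted p = 0.0907) and leaving out RU UF 2 the RU call (-0.44, adjusted p = 0.0593). It did not pass in control follicles with median scaling (-0.16) and was 0.97 on the deposited signals, below the median of all probe sets.

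Before rupture, no difference of Ctsl from control passed under either drug. RU PeF lay -0.30 ± 0.16 from control PeF (95% interval -0.63 to 0.038, limma adjusted p = 0.269) and IM PeF -0.27 ± 0.16 (-0.61 to 0.062, adjusted p = 0.502). In both cases all 3 treated samples of the brighter probe set lay below all 3 of control PeF, and the RU and IM samples overlapped each other. On the other probe set of Ctsl RU PeF lay below control PeF without overlap (-0.40 ± 0.20, limma adjusted p = 0.239). IM PeF overlapped control PeF there (-0.38 ± 0.20, adjusted p = 0.467). A list of 14 measured genes held the progesterone receptor gene Pgr, itself not called here, and genes reported to follow the receptor in follicles. In the same RU PeF samples 5 of the 14 fell and 2 rose, where 4.03% of all probe sets fell and 3.4% rose. Among those that fell were the chemokine receptor gene Cxcr4 (-4.85 ± 0.35, adjusted p = 1.17e-06) and the protease gene Adamts1 (-2.35 ± 0.27, 4.92e-05), and endothelin 2 (Edn2) rose (1.96 ± 0.49, 0.0198). Of a list of 14 glucocorticoid receptor targets, which included the receptor gene Nr3c1, 9 fell and 0 rose. The metallothionein gene Mt1 was among those that fell (-2.58 ± 0.29, limma adjusted p = 3.05e-05).

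Cathepsin H (Ctsh), mainly an aminopeptidase, rose at estrus under both drugs. It had 263, 269.6 and 247 in RU UF, against 131, 159 and 95.9 in RU PeF. It had 386, 151 and 355 in IM UF, against 142, 149 and 131 in IM PeF, with IM UF 2 just above the highest IM PeF sample. It had 179, 250.4 and 300.1 in control PoF, against 137, 167 and 159.9 in control PeF. The rise was 2.04-fold in RU follicles (1.03 ± 0.28, limma adjusted p = 0.00673) and 1.94-fold in IM follicles (0.95 ± 0.28, adjusted p = 0.0128), where the call ended without IM UF 1 (0.71, adjusted p = 0.0791) or IM UF 3 (0.77, adjusted p = 0.0707). In control follicles the groups did not overlap and the difference of 0.62 ± 0.28 had an adjusted p of 0.0854, which passed with median scaling (0.97, adjusted p = 0.0369).

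Cathepsin Z (Ctsz), a carboxypeptidase, fell in control follicles. It had 138, 143 and 185 in control PoF, against 263, 194 and 315 in control PeF, with no overlap (1.63-fold, -0.70 ± 0.19, limma adjusted p = 0.00622). With median scaling it did not pass (-0.34), and with the signals as deposited it stood at 0.77, below the median of all probe sets. In IM UF it had 233, 233 and 221, against 195, 241 and 286 in IM PeF, and this difference of -0.055 ± 0.19 did not pass (adjusted p = 0.848). All 3 IM UF samples lay above all 3 control PoF samples, with a difference of 0.56 ± 0.19 that did not pass over all probe sets (adjusted p = 0.443). RU UF had 166, 155 and 176, against 220.1, 177 and 239 in RU PeF, again with no overlap and without passing (-0.34 ± 0.19, adjusted p = 0.161).

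Cathepsin K (Ctsk), the collagen-degrading protease of osteoclasts, was called in no comparison. Its levels ran from 49.2 to 169.7 over the 18 samples. It had 125, 56.5 and 77.9 in RU PeF and 155, 169.7 and 127 in IM PeF, which did not overlap (-0.84 ± 0.30, limma adjusted p = 0.129). Without RU PeF 1 that difference passed (-1.14, adjusted p = 0.0471).

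**Figure D3:**
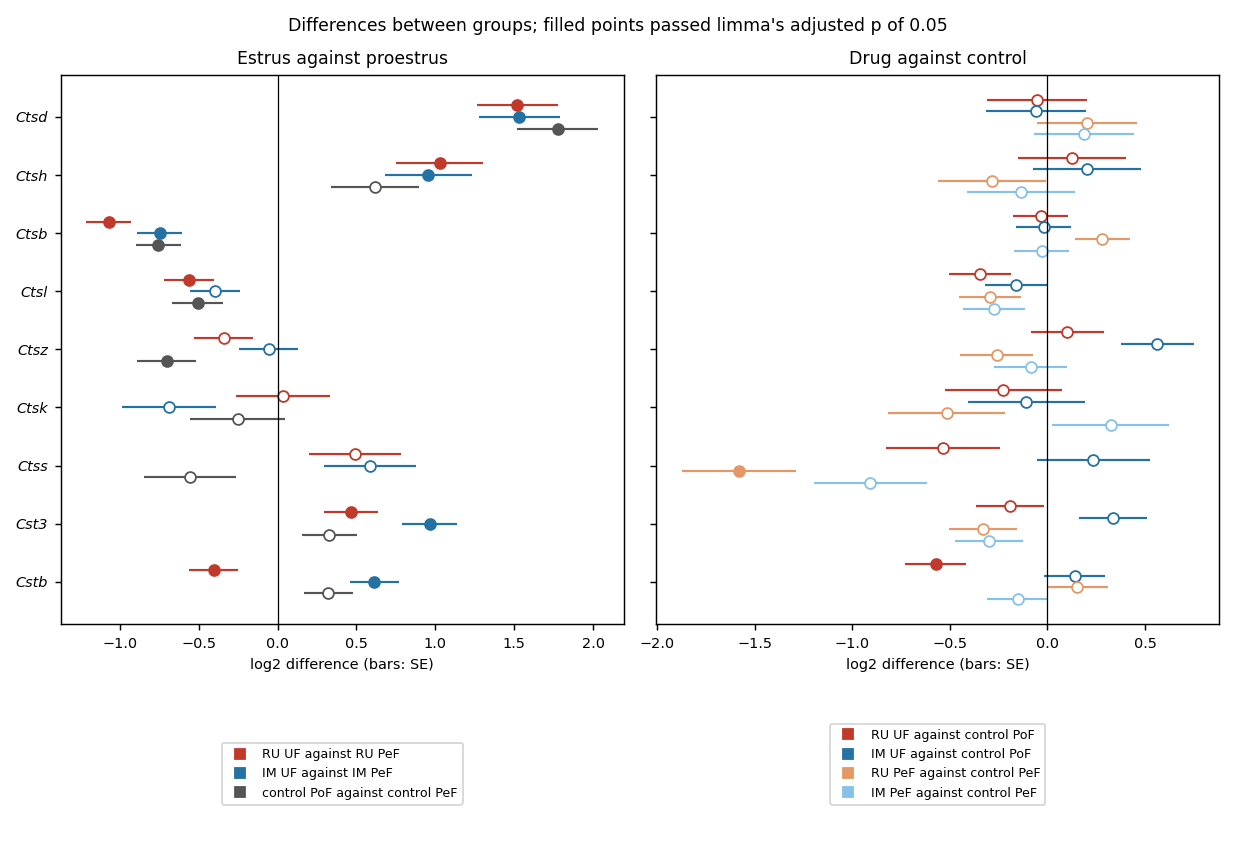
Log2 differences of the 9 genes between groups, with SE bars; the left panel sets estrus against proestrus within each treatment and the right panel each drug against the control of its time, and filled points passed limma's adjusted p of 0.05. Ctsd (1.52 to 1.78) and Ctsb (-1.07 to -0.75) were called in all 3 time courses, and against control only Ctss in RU PeF and Cstb in RU UF were called.

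Both cystatins rose from proestrus to estrus under indomethacin. Under RU486 Cst3 was called higher and Cstb lower at estrus, calls that each ended under most of the samples left out. Cystatin C (Cst3), a secreted inhibitor of cysteine cathepsins, had 339.5, 334 and 378 in RU UF, against 267, 325 and 186 in RU PeF. It had 568, 505 and 453 in IM UF, against 268, 211 and 305 in IM PeF. It had 396, 407 and 400.1 in control PoF, against 327, 306 and 324 in control PeF. The times did not overlap in any treatment. The rise was 1.95-fold in IM follicles (0.96 ± 0.17, limma adjusted p = 0.000342) and 1.38-fold in RU follicles (0.47 ± 0.17, adjusted p = 0.0409), while in control follicles the difference of 0.33 ± 0.17 did not pass (adjusted p = 0.141). It passed there with median scaling (0.71, adjusted p = 0.0449) and with arrays weighted by quality (0.38, adjusted p = 0.0209). The RU call was kept under 5 of 15 alternative settings and samples left out, and without RU PeF 3 the difference was 0.25 (adjusted p = 0.253). At estrus Cst3 was lower in every RU UF sample than in any IM UF sample (-0.53 ± 0.17, adjusted p = 0.0776), a difference that did not pass over all samples and passed with only these groups in the fit (adjusted p = 0.0248).

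Cystatin B (Cstb, gene at chr20:10245157-10247199), an inhibitor of cysteine cathepsins inside the cell, was the only one of the 9 genes called between the drugs. It had 1201, 1222 and 1163 in RU UF, against 1526, 1678 and 1549 in RU PeF. It had 1753, 2618 and 1641 in IM UF, against 1339.8, 1324 and 1183 in IM PeF. It had 2073, 1646 and 1648 in control PoF, against 1390.1, 1209 and 1713 in control PeF. The 3 RU UF samples lay below every sample of IM UF, control PoF and RU PeF. From proestrus to estrus Cstb fell 1.32-fold in RU follicles (-0.41 ± 0.16, limma adjusted p = 0.0473) and rose 1.53-fold in IM follicles (0.61 ± 0.16, adjusted p = 0.00541). Without IM UF 2, the highest sample, the IM difference was 0.41 (adjusted p = 0.0361). In control follicles the groups overlapped and the difference of 0.32 ± 0.16 did not pass (adjusted p = 0.109), while it passed without control PeF 3, the dimmest array (0.46, adjusted p = 0.0348), and with median scaling (0.59, adjusted p = 0.0281). The fall in RU follicles ended as a call when any 1 of its 6 samples was left out (adjusted p of up to 0.134), with the replicate number as a block, without a filter on dim probe sets and on the deposited signals.

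The comparison of the drugs at estrus asks how unruptured follicles differ by the way rupture was blocked. Cstb was 1.64-fold lower in RU UF than in IM UF (-0.71 ± 0.16, limma adjusted p = 0.00919), the only one of the 9 genes called, where 6.95% of probe sets were. Without IM UF 2, the highest sample, it was -0.50 and had a limma adjusted p of 0.0511. The array of IM UF 2 was dim, with a median deposited signal of 7.68 against 23.8 and 19.6 on the other IM UF arrays. Its Gapdh gap between the 3' and 5' ends was 3.83 on the log2 scale, against 2.18 and 2.62 on those arrays. The part of array quality in the Cstb difference was not tested. The difference between the RU and the IM time course, a comparison chosen after seeing the data, was -1.02 ± 0.22 (adjusted p = 0.0166), again the only one of the 9 genes called, where 2.62% of probe sets were. It ended as a call without RU PeF 2 (-0.98, adjusted p = 0.0518) and with the signals as deposited (-1.28).

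Against untreated follicles, Cstb was 1.49-fold lower in RU UF than in control PoF (-0.57 ± 0.16, limma adjusted p = 0.0276), with no overlap. It was the only one of the 9 genes called there, where 8.7% of probe sets were. Median scaling ended this call (-0.69, adjusted p = 0.0554), as did the deposited signals (-1.29) and the loss of control PoF 1, control PoF 2 or any of the RU UF samples (-0.63 to -0.46 with 1 sample left out). The RU effect at estrus minus that at proestrus was -0.73 ± 0.22 and did not pass (adjusted p = 0.0742). In that comparison limma called 0 of the 9 genes, with 2 at an unadjusted p under 0.05, where 4.02% of probe sets were called. It passed for Cstb without control PeF 3 (-0.86, adjusted p = 0.0271).

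No member passed the test between IM and control follicles. In IM UF against control PoF limma called 0 of the 9 genes, with 1 (Ctsz) at an unadjusted p under 0.05, where 0.033% of all probe sets were called. In IM PeF against control PeF it called 0 of the 9, with 1 (Ctss) at an unadjusted p under 0.05, where 0% were called, that is 0 of 18155. The IM effect at estrus minus that at proestrus gave 0 of the 9, with 3 at an unadjusted p under 0.05 (Ctss, Ctsz and Cst3), and 0% of all probe sets. Cstb differed by 0.14 ± 0.16 between IM UF and control PoF (95% interval -0.19 to 0.47) and Ctsb by -0.02 ± 0.14 (-0.32 to 0.28). The targets of the drugs changed across ovulation themselves: cyclooxygenase 2 (Ptgs2) fell by 7.68 ± 0.83 (limma adjusted p = 1.83e-06) in control PoF against control PeF. The progesterone receptor gene Pgr was above background on none of the control PoF arrays, so its fall there is known only as at least 16.0-fold (adjusted p = 7.23e-05).

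Setting RU PeF beside control PeF asks what receptor blockade does before rupture. Cathepsin S (Ctss), the protease that trims the invariant chain of class II antigen presentation in macrophages and dendritic cells, was the only member called, where 7.42% of probe sets were. It had 33.8, 24.9 and 38.4 in RU PeF and 50.1, 55.1 and 52.7 in IM PeF, against 91.3, 80.5 and 141 in control PeF. The 3 RU PeF samples lay below all 3 of IM PeF, and those below all 3 of control PeF. Ctss was lower in RU PeF than in control PeF (-1.58 ± 0.29, limma adjusted p = 0.00297), and its difference of -0.91 ± 0.29 in IM PeF did not pass (adjusted p = 0.352), nor did that between the drugs (-0.68 ± 0.29, adjusted p = 0.233). In RU PeF against IM PeF limma called 0 of the 9 genes, with 3 at an unadjusted p under 0.05 (Ctsb, Ctsk and Ctss), where 5.23% of probe sets were called. The RU PeF call held with median scaling (-1.29) and with each sample left out in turn (-1.74 to -1.35). It ended with the signals as deposited (-0.75, adjusted p = 0.527) and with only these groups in the fit (adjusted p = 0.0501).

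At estrus Ctss had 49.6, 33.5 and 57.7 in RU UF, 62.0, 119 and 70.2 in IM UF and 76.2, 49.0 and 83.2 in control PoF. All 3 RU UF samples lay below those of IM UF, and RU UF overlapped control PoF. Neither RU UF against IM UF (-0.77 ± 0.29, limma adjusted p = 0.13) nor RU UF against control PoF (-0.54 ± 0.29, adjusted p = 0.317) passed. Its time courses did not pass either, at 0.49 ± 0.29 (adjusted p = 0.2) in RU, 0.59 ± 0.29 (adjusted p = 0.134) in IM and -0.56 ± 0.29 (adjusted p = 0.137) in control follicles, where it stood at 0.88 on the deposited signals.

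Some leukocyte markers were lower beside Ctss before rupture, while most were not called. Of 17 measured macrophage and other leukocyte genes 5 fell and 1 rose in RU PeF against control PeF, with a median of -0.71 where that of all probe sets was 0.06. Over all probe sets 4.03% fell and 3.4% rose in this comparison. The complement gene C1qa fell by 1.69 ± 0.35 (limma adjusted p = 0.00613), while the lipopolysaccharide co-receptor gene Cd14 rose by 2.19 ± 0.33 (adjusted p = 0.000658). The macrophage mannose receptor gene Mrc1 was above background on none of the RU PeF arrays and on 2 of 3 control PeF arrays, so its fall is known only as at least 2.25-fold (adjusted p = 0.0283), set against the lowest signal above background. The other 3 that fell were the class II chains RT1-Ba (-1.86 ± 0.50) and RT1-Da (-1.12 ± 0.30) and the invariant chain gene Cd74 (-1.10 ± 0.30). Cathepsin C (Ctsc), which activates the serine proteases of leukocyte granules, had 55.7, 15.0 and 18.3 in RU PeF, against 87.6, 74.7 and 90.7 in control PeF, and fell 3.10-fold (-1.63 ± 0.32, adjusted p = 0.00502). The pan-leukocyte gene Ptprc and the macrophage genes Csf1r and C1qc stood at or below background on at least 1 array in both groups, and 10 of the 17 in RU PeF and 9 in control PeF stood above it on all 3 arrays. The summed normalised signal of the list was 624 to 754 in RU PeF and 647 to 884 in IM PeF, against 861 to 994 in control PeF. Median scaling gave 3 lower and 1 higher markers. On the deposited signals limma called 0, with 2 at an unadjusted p under 0.05 (median -0.15, that of all probe sets 0.77). Of all probe sets 22 were called on the deposited signals and 888 with median scaling. Of 9 theca genes 6 fell as well and 0 rose, with a median of -0.92. Of 12 smooth muscle and pericyte genes 4 fell and 0 rose (median -0.73), and of 12 endothelial genes 2 fell and 0 rose (median -0.49). The part of leukocyte, theca, smooth muscle or endothelial content in the Ctss difference was not tested.

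**Figure D4:**
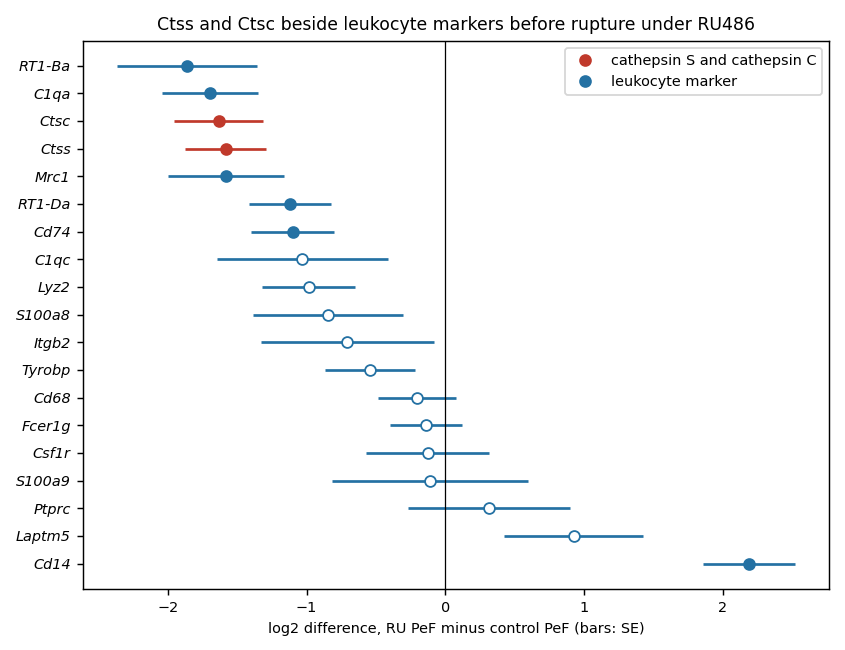
Log2 differences between RU PeF and control PeF, with SE bars, of Ctss and Ctsc (red) and the 17 measured leukocyte markers (blue); filled points passed limma's adjusted p of 0.05. Ctss (-1.58) and Ctsc (-1.63) lie among the markers that fell, and Cd14 (2.19) lies apart on the other side; Mrc1 is drawn at its fitted value, though it was above background on no RU PeF array.

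Other lysosomal genes rose with Ctsd at estrus. Of 38 measured genes of lysosomal membrane proteins, hydrolases and sorting receptors 23 rose and 3 fell in RU follicles (median 0.80), 19 rose and 2 fell in IM follicles (median 0.58), and 20 rose and 1 fell in control follicles (median 0.56). The shares of all probe sets called higher were the 19%, 16.3% and 21% given above. Acid ceramidase (Asah1), which breaks down ceramide, rose by 2.55 ± 0.18 in RU (limma adjusted p = 1.4e-08), 2.48 ± 0.18 in IM (2.19e-08) and 1.99 ± 0.18 in control follicles (2.38e-07). Igf2r, the receptor that sorts mannose 6-phosphate-tagged enzymes such as cathepsins to lysosomes, rose by 2.79 ± 0.18 in RU (adjusted p = 7.63e-09), 1.52 ± 0.18 in IM (5.48e-06) and 1.60 ± 0.18 in control follicles (2.99e-06). At estrus Igf2r was 2.05-fold higher in RU UF than in control PoF (adjusted p = 0.00131) and 2.13-fold higher than in IM UF (adjusted p = 0.00123), where Ctsd differed by -0.054 ± 0.26 and 0.0052 ± 0.26. With median scaling 19, 15 and 22 of the 38 rose in the RU, IM and control time courses. With the signals as deposited 3, 1 and 24 did. Of all probe sets 5804, 4555 and 5835 were called in either direction with median scaling. On the deposited signals 1038, 609 and 5595 were. The median of all probe sets on the deposited signals was -0.14, -0.053 and 1.28 in the RU, IM and control time courses. The part of array brightness in these counts was not tested.

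Among 9 measured further cathepsins and related proteases 5 rose and 1 fell in RU follicles, 4 rose and 1 fell in IM follicles, and 3 rose and 1 fell in control follicles. Of all probe sets 19%, 16.3% and 21% rose and 19.9%, 17% and 18.5% fell there. Cathepsin A (Ctsa), a carboxypeptidase that also protects lysosomal glycosidases, rose by 1.10 ± 0.13 in RU (limma adjusted p = 5.81e-06), 0.69 ± 0.13 in IM (0.000671) and 0.61 ± 0.13 in control follicles (0.00176). Tripeptidyl peptidase 1 (Tpp1) rose by 1.56 ± 0.22 in RU (adjusted p = 3.04e-05), 1.14 ± 0.22 in IM (0.000758) and 1.10 ± 0.22 in control follicles (0.000917). Legumain (Lgmn), the asparaginyl endopeptidase that helps mature cathepsins, fell in RU (-1.03 ± 0.23, adjusted p = 0.00186), IM (-1.05 ± 0.23, 0.002) and control follicles (-1.15 ± 0.23, 0.000825), and in control follicles it stood above 0 with the signals as deposited (0.33). Of the list of other cystatins and inhibitors only Ctla2a, Serpinb1a and Serpinb6a were tested, and no further cystatin was. Serpinb6a, an intracellular serine protease inhibitor, was lower in RU UF than in control PoF (-0.89 ± 0.24, limma adjusted p = 0.0264). It was the only one of the 3 called there, where 8.7% of all probe sets were.

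Matrix metalloproteinases and their tissue inhibitors, another protease system of the follicle wall, were called at shares near those of all probe sets in the IM and control time courses. Of 13 measured genes 4 rose and 3 fell in RU, 3 rose and 2 fell in IM, and 4 rose and 2 fell in control follicles, where 38.8%, 33.3% and 39.6% of all probe sets were called. The inhibitor gene Timp1 fell by 2.21 ± 0.18 in RU follicles (limma adjusted p = 8.8e-08) and by 0.60 ± 0.18 in IM follicles (0.0184). It was higher in RU PeF than in control PeF (0.85 ± 0.18, adjusted p = 0.00858), and lower in RU UF than in IM UF (-0.97 ± 0.18, adjusted p = 0.00329) and in control PoF (-0.97 ± 0.18, adjusted p = 0.00255).

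Some markers of other cell types were also called between proestrus and estrus, while leukocyte and endothelial markers were called less often than all probe sets. Of all probe sets 19%, 16.3% and 21% rose and 19.9%, 17% and 18.5% fell in RU, IM and control follicles. Of 12 smooth muscle and pericyte genes 7 rose and 2 fell in RU, 8 rose and 0 fell in IM, and 7 rose and 1 fell in control follicles. Their summed normalised signal was 1158 to 1263 in RU UF against 460.3 to 512 in RU PeF, 1497 to 1818 in IM UF against 596 to 728 in IM PeF, and 1215 to 1662 in control PoF against 780.0 to 1004 in control PeF. Acta2, Rgs5, Pdgfrb and Cspg4 stood at or below background on at least 1 control PeF array. Leukocyte markers summed to 499 to 766 in RU UF, 963 to 1334 in IM UF and 705 to 1588 in control PoF, with 2, 1 and 1 of 17 called higher and 1, 0 and 0 lower than at proestrus. Of 14 granulosa genes 6 rose and 6 fell in RU, 4 rose and 4 fell in IM, and 4 rose and 6 fell in control follicles. Of 9 theca genes 5 rose and 1 fell in RU, 4 rose and 3 fell in IM, and 4 rose and 3 fell in control follicles. Of 3 surface epithelium genes 2 rose in each time course, and of 12 endothelial genes 0, 1 and 1 rose and 2, 1 and 2 fell in RU, IM and control follicles. The part of cell content in the time courses of the cathepsins was not tested.

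**Figure D5:**
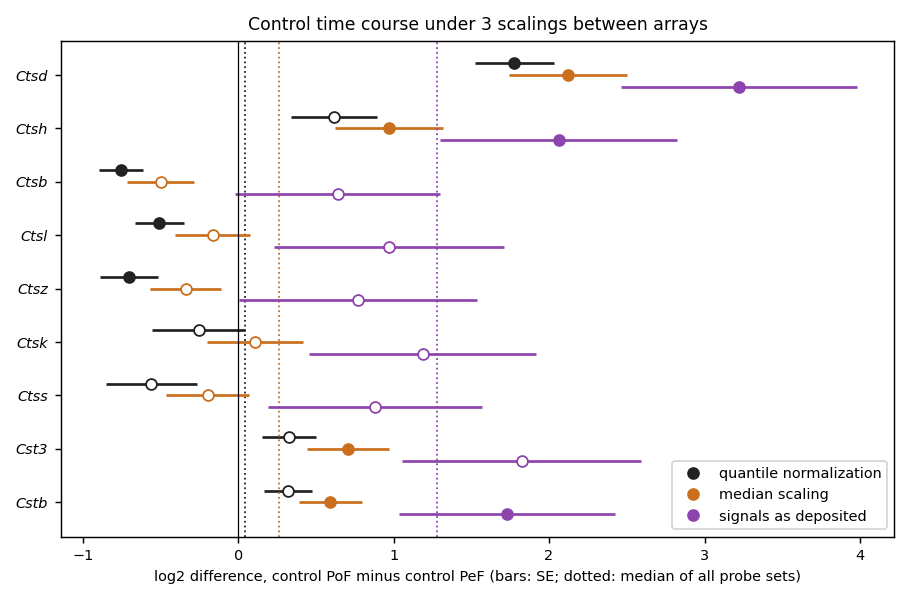
Log2 differences between control PoF and control PeF of the 9 genes, with SE bars, under 3 ways of scaling the arrays; filled points passed an adjusted p of 0.05 and dotted lines mark the median of all probe sets under each scaling. The median is 0.045 with quantile normalization, 0.26 with median scaling and 1.28 on the deposited signals, where Ctsb, Ctsl and Ctsz lie above 0 but below that median.

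The genes whose log2 levels followed a member most closely over the 18 samples were named by Pearson's r, as a description of samples that share groups and arrays. For Ctsb they were Sod2 (0.984) and Tnfaip6 (0.975), and for Ctsd Aldh1l1 (0.976) and Tmem59 (0.972). For Ctsh they were Scamp4 (0.915) and S100b (0.89), for Ctsl Cpa1 (0.9) and Heg1 (0.9) and for Ctsz Usp39 (0.774) and Fabp4 (0.774). For Ctss they were Nnmt (0.846) and Pxdn (0.829), and for Ctsk Bcar3 (0.78) and Apcdd1 (0.767). For Cst3 they were Itgb3 (0.889) and Sytl2 (0.872), and for Cstb Pnpt1 (0.824) and Pxdc1 (0.819). These r were highest for Ctsb and Ctsd and lowest for Ctsk and Ctsz.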

How the data were processed

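The deposited values were intensities, given as linear probe set signals in 1 table of 18 columns, with 0 value columns unused. Per the submitters' processing notes MAS5 was named, without version or scaling; the lowest value was 1. The labels' protocols state biotin labelling by in vitro transcription. The 57 control probe sets were left out, signals were quantile normalized, and log2 was taken after adding 2.79. This was percentile 20 of all deposited values, control probe sets included. Probe sets above their array's median on at least 3 arrays were tested (18155). The annotation gave a single symbol for 20826 probe sets, more than 1 for 436 and no symbol for 9780.

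The model (limma 3.58.1, R 4.3.3) held a mean for each group, with a variance trend, 12 residual degrees of freedom and Benjamini-Hochberg adjustment within each comparison, for 11 comparisons and 1 added after seeing the data. No permutation test was used, since the smallest exact two-sided p of 3 against 3 is 0.1. The tests were checked on simulated data. A gene with several probe sets was counted through the brighter one. Folds are on the log2(signal + 2.79) scale and understate changes of dim genes.

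The members, the lists and the rule for named genes were chosen with earlier results of these data known. The rule took all members, at most 3 called genes of a list with the smallest adjusted p, markers at background, the 2 closest genes to each member, Ptgs2 and Pgr. RT1-Ba, RT1-Da, Cd74 and Edn2, and Lgmn, Ctsa and Igf2r in the time courses where they ranked lower, fall outside the rule and were named after their values were seen. Where a gene was above background on no array of a group, its fold is a bound against the lowest normalised signal above background on each array. Alternatives were median scaling, the deposited signals, a pseudocount of 16.4, no filter, only the groups compared, array weights, the 3 dimmest arrays left out, a replicate block, the mean of a gene's probe sets and each sample left out. Gene positions and promoters came from RefSeq tables of GRCr8, in which 8 of 9 members had a promoter. Python 3.11.15 and matplotlib 3.10.9 drew the figures.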

Additional observations from a re-analysis of the deposited data

Results flagged for a closer look

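Cystatin B differed between the drugs at estrus: its log2 difference between RU UF and IM UF was -0.71 ± 0.16 (limma adjusted p = 0.00919), with all 3 RU UF samples below all 3 IM UF samples. Without IM UF 2, a dim array, that difference was -0.50 (limma adjusted p = 0.0511). The Cstb time courses under the drugs also differed, by -1.02 ± 0.22 for RU minus IM (limma adjusted p = 0.0166), with a fall of 0.41 in RU follicles and a rise of 0.61 in IM follicles. The comparison of time courses was chosen after seeing the data, and the drugs were given at different hours and doses, which cannot be told apart from their targets.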

How the results depend on the processing

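Over 19 called differences and 291 alternatives, 240 kept direction and call, 48 lost the call and 3 turned, the last being Ctsb (0.64), Ctsl (0.97) and Ctsz (0.77) in control PoF against control PeF with the signals as deposited, where the median of all probe sets was 1.28. The Ctsd rise in control follicles kept its call under all 15 alternatives (1.38 to 3.22). On the deposited signals limma called 0 of the 9 genes in RU PeF and 0 in RU UF against control. It called 0 in RU UF against IM UF. It called 0 in the IM and 0 in the RU time course, and 0 for the difference of these. In these comparisons 0 to 1 genes had an unadjusted p under 0.05. Of all probe sets it called 22, 151, 32, 609, 1038 and 0 there, in the same order. With so few probe sets called, these counts of 0 are no result about the members. Weighting arrays by quality gave 7 in the control time course, 2 in IM PeF and 3 in RU PeF against control, 4 and 2 between the drugs at proestrus and estrus, and 1 for the difference of RU effects, with Ctsz then 0.44 in IM PeF, turned from -0.085. With only the groups compared in the fit 0 of the 9 genes were called in RU PeF against control PeF. It gave 2 in RU UF against IM UF and 1 for the difference of RU effects. Of all probe sets 277, 1888 and 676 were called there. Median scaling gave 0 of the 9 genes in RU UF against control PoF and 1 for the difference of RU effects. Of all probe sets it called 785 and 333 there. Leaving out the 3 dimmest arrays also gave 1 for the difference of RU effects, where 1668 of all probe sets were called. The causes were not tested.

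With 1 sample left out the count ran from 0 to 1 in RU UF against control PoF, RU UF against IM UF, RU PeF against IM PeF, the difference of RU effects and that of the time courses, and from 3 to 5 in the RU time course, where leaving out RU UF 2 gave 3. The other counts stayed within 1.5 times their value. The quality weights of 7.17 on IM PeF 3 and 3.97 on control PeF 2 were the highest of the 18.

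Samples with the same replicate number did not deviate together, with a mean r of -0.022, -0.014 and -0.011 for numbers 1 to 3. For different numbers it was 0.0083, and 3 of 18 samples were closest to their own number. With 3 samples per group this check cannot exclude a shared animal, and the labels tie no sample to an animal. With the replicate number as a block 4 genes were called in the RU time course, Cst3 (0.47, adjusted p = 0.0558) and Cstb (-0.41, adjusted p = 0.0621) being lost, and the other counts of calls were as without it.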
